A study of Homo sapiens with 18 samples.

Results

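The retinoblastoma family and the E2F factors were followed at the transcript level in TNBC cells depleted of ASAP1. The members were every probe listed under the symbols RB1, RBL1, RBL2, E2F1, E2F2, E2F3, E2F4, E2F5, E2F7 and E2F8, which gave 11 of 21111 probes for 10 of 19289 gene symbols, with RBL2 read by 2 probes. Over the 3 TNBC cell lines the member that passed correction after silencing was E2F3, which rose about 1.96-fold (Log2 FC 0.97, SE 0.23, adjusted p = 0.035), a call that held in 11 of 27 alternative settings. RBL2 was lower in BT549 and Hs578T at about 37% of the siCtrl mean, by a test without correction, and RB1 was near 0 in BT549. In SUM149PT, the summed E2F targets of G1/S and MuvB targets of G2/M were lower in all 3 siASAP1 libraries than in every siCtrl library. There 0 probes of these lists passed correction. The G2/M sum was lower without overlap in Hs578T too. The summed E2F targets of apoptosis, in which APAF1 was the most read gene, overlapped in SUM149PT, where 2 of 9 probes had a negative Log2 FC, against 46.5% of all probes.

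The pocket proteins, encoded by RB1, RBL1 (p107) and RBL2 (p130), bind E2F factors and recruit corepressors to E2F target promoters. Cyclin-dependent kinases phosphorylate the pocket proteins, which frees the activating factors E2F1, E2F2 and E2F3 to switch on genes for DNA replication. E2F4 and E2F5 act mostly as repressors with RBL1 and RBL2, and in resting cells RBL2 forms the DREAM complex with E2F4 or E2F5 and the MuvB core. E2F7 and E2F8 are atypical repressors that bind DNA without a DP partner and are themselves E2F targets. Loss of RB1 function is frequent in TNBC.

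BT549 and Hs578T (mesenchymal-like in the study's text) and SUM149PT (basal-like) are established human breast tumor cell lines. Each was transfected for 72 h with 50 nM siASAP1, a SMARTpool of siRNAs against ASAP1, or with siCtrl, which the study's methods describe as a pool of kinase siRNAs, in 3 replicates per group described there as biological. TempO-Seq read each transcript through a pair of detector oligos that are ligated side by side on the RNA, so that each probe covers a short stretch of it. The 18 libraries held 4.63 to 12.5 M reads (median 6.63 M), and values are the authors' normalized read counts, that is, reads per probe divided by a size factor per library.

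Most markers of the cell lines were in place. EPCAM, an epithelial adhesion protein, had a siCtrl mean normalized count of 29532 ± 8322 in SUM149PT, 19.0 ± 7.29 in Hs578T and 1.72 ± 0.69 in BT549 (SD, n = 3). VIM (probe VIM_18185), a filament of mesenchymal cells, had 151322 ± 59073 in Hs578T, 32100.4 ± 4506 in BT549 and 2622 ± 545 in SUM149PT. CDH2, the mesenchymal N-cadherin, did not follow this order, at 4010 ± 1328 in Hs578T, 1733 ± 335 in SUM149PT and 325 ± 118 in BT549. ZEB1, a mesenchymal transcription factor, was at 0 reads in 17 of 18 libraries. CD3E, VWF and CDH5, markers of T and endothelial cells, were at 0 reads in 18 of 18 libraries. Of the probes of that blood and endothelial list, 1 passed the filter (PECAM1_14079, at most 113 reads).

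ASAP1, an Arf GTPase-activating protein, was read by a single probe. In BT549 its normalized count was 1107, 966 and 944 after siCtrl and 367, 729.7 and 783 after siASAP1. In Hs578T it was 1641, 1414 and 2697 after siCtrl and 782, 825 and 1261 after siASAP1. In SUM149PT it was 1087, 189 and 1314 after siCtrl and 282, 468 and 184 after siASAP1. The groups did not overlap in BT549 and Hs578T, whereas in SUM149PT the siCtrl library 2 lay at the level of silenced cells. The remaining transcript was 62.3%, 49.9% and 36.1% of the siCtrl mean in BT549, Hs578T and SUM149PT. The Log2 FC in limma was -0.75 (SE 0.39, adjusted p = 0.65), -0.98 (SE 0.32, adjusted p = 0.91) and -1.16 (SE 0.77, adjusted p = 0.66). A fit blocked on replicate number gave an adjusted p of 0.048 in Hs578T.

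Of the libraries, SUM149PT siCtrl 2 stood apart. Its log2 values correlated with the mean of its other replicates at Pearson r = 0.891 across probes, the lowest of 18, followed by SUM149PT siASAP1 2 at 0.920. Without both libraries, a fit of 2 libraries against 2 in SUM149PT called 16.1% of all probes lower and 21.7% higher after adjustment, where 0 probes passed with all 6 libraries (1025 at an unadjusted p under 0.05 in limma, and 0 after adjustment with voom weights). The Log2 FC of ASAP1 in that fit was -2.39 (adjusted p = 0.00059). These libraries were left out after the values were seen.

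Promoter sequence was examined for the E2F element, because members of this family are known to act on each other's promoters. RefSeq windows (GRCh38.p14, 250 bases before to 50 after an annotated start) were given for 8 of the 10 members, in 10 windows. E2F5 and E2F8 were not analysed here for sequence. The words TTTCCCGC, TTTCGCGC, TTTGCCGC and TTTGGCGC were searched on both strands, and 4 members held at least 1 of them, against 3.31% of 35116 promoter windows. The word TTTGAA of the CHR element, through which the MuvB complex binds DNA, was in a window of RBL2 and of E2F3 and in 15.2% of all windows. Below are the 4 stretches with E2F words, each read along its gene's strand with the words in capitals, shown because they include the member that rose (E2F3) and the activator probes that were near 0 (E2F1 and E2F2).
E2F3, chr6:20401815-20401844, plus strand: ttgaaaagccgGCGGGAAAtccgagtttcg
RBL1, chr20:37095998-37096034, minus strand: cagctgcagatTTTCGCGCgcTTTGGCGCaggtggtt
E2F1, chr20:33686387-33686429, minus strand: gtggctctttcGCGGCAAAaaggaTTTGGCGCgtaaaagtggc
E2F2, chr1:23531257-23531286, minus strand: gcggcacgacgTTTGGCGCtaaaaaaaaaa
The word in E2F3 starts 53 bases before the annotated start, and those in RBL1 start 26 and 16 bases before it. RB1, RBL2, E2F4 and E2F7 held none of these words in the windows given. A match describes the sequence and was not tied to a change in these data.

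Levels without ASAP1 silencing were compared over the 9 siCtrl libraries, with a limma fit over the 3 cell lines. RB1 (13:48303726-48599436 in GRCh38, plus strand, GENCODE release 29), the founding tumor suppressor of the family, set BT549 apart from the other cell lines. In BT549 its probe had 1, 3 and 0 reads after siCtrl and 0, 20 and 8 reads after siASAP1. In Hs578T its normalized count was 159, 144 and 170.4 after siCtrl and 229, 127 and 195 after siASAP1. In SUM149PT it was 104, 13.7 and 137 after siCtrl and 9.26, 83.3 and 46.0 after siASAP1. All siCtrl libraries of Hs578T and SUM149PT lay above those of BT549. The Log2 FC of RB1 was 6.41 (SE 0.87, adjusted p = 0.00072) for Hs578T against BT549 and 5.00 (SE 0.87, adjusted p = 0.0025) for SUM149PT against BT549. Every siCtrl library of Hs578T lay above those of SUM149PT, but the difference did not pass adjustment. For SUM149PT against Hs578T the Log2 FC was -1.41 (SE 0.87, adjusted p = 0.29). RB1 passed the filter through the cell lines where it was high, with a siCtrl mean of 1.04 in BT549, so its fold against BT549 rests on a few reads there and is a description of the levels above. The log2 values include a pseudocount of 1, so the changes of probes with few reads are understated. In bulk libraries, fewer cells with a transcript and less transcript per cell cannot be told apart.

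In that fit 7 member probes were tested. RB1 was among them through the cell lines where it was high, so its place in the counts below is descriptive only. Between Hs578T and BT549, RB1 and E2F5 had an adjusted p under 0.05, where 13.9% of all probes tested did. Between SUM149PT and BT549 it was RB1, where 18.2% did. Between SUM149PT and Hs578T it was E2F8, where 20.2% did, and E2F5 (Log2 FC 2.56, SE 0.84) had an adjusted p of 0.057, or 0.029 with the replicate block. E2F5 was 8.87-fold lower in Hs578T than in BT549 (Log2 FC -3.15, SE 0.84, adjusted p = 0.032), with siCtrl means of 69 ± 47.9 and 472 ± 127 and 421 ± 421 in SUM149PT. That call was lost in 4 of 18 alternatives, each of which left out 1 siCtrl library. Over the fits without 1 library its Log2 FC ran from -3.62 to -2.24. E2F8 was 5.15-fold higher in SUM149PT than in Hs578T (Log2 FC 2.37, SE 0.54, adjusted p = 0.011), and its siCtrl means ran from 64.4 ± 43.9 in Hs578T over 139.8 ± 12.6 in BT549 to 281 ± 27.9 in SUM149PT. The middle value did not differ from either neighbour after adjustment (adjusted p = 0.14 and 0.25). Between Hs578T and BT549, E2F8 passed in 1 of 18 alternatives, and its Log2 FC ran from -1.88 to -0.77 without 1 library.

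The other members ranked as follows. RBL1 had siCtrl means of 279 ± 61.5 in BT549, 231 ± 46.7 in SUM149PT and 169 ± 34.0 in Hs578T. RBL2 had 557 ± 643 in SUM149PT, 515 ± 150.4 in BT549 and 307 ± 54.1 in Hs578T. E2F3 had 372 ± 73.2 in SUM149PT, 261 ± 109.5 in BT549 and 172 ± 33.3 in Hs578T. E2F7 had 277 ± 112 in Hs578T, 139.8 ± 82.1 in SUM149PT and 93.4 ± 29.9 in BT549. No pair of cell lines differed in these 4 genes at an adjusted p under 0.05 in limma, and the smallest adjusted p were 0.095 for E2F3 between SUM149PT and Hs578T and 0.098 for E2F7 between Hs578T and BT549. Without SUM149PT siCtrl 2, RBL2 was lower in SUM149PT than in BT549 (Log2 FC -1.42, adjusted p = 0.0092). Between SUM149PT and Hs578T, E2F3 passed in 3 of 18 alternatives and E2F7 in 1 of 18. Between Hs578T and BT549, E2F7 passed in 2 of 18.

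**Figure D1:**
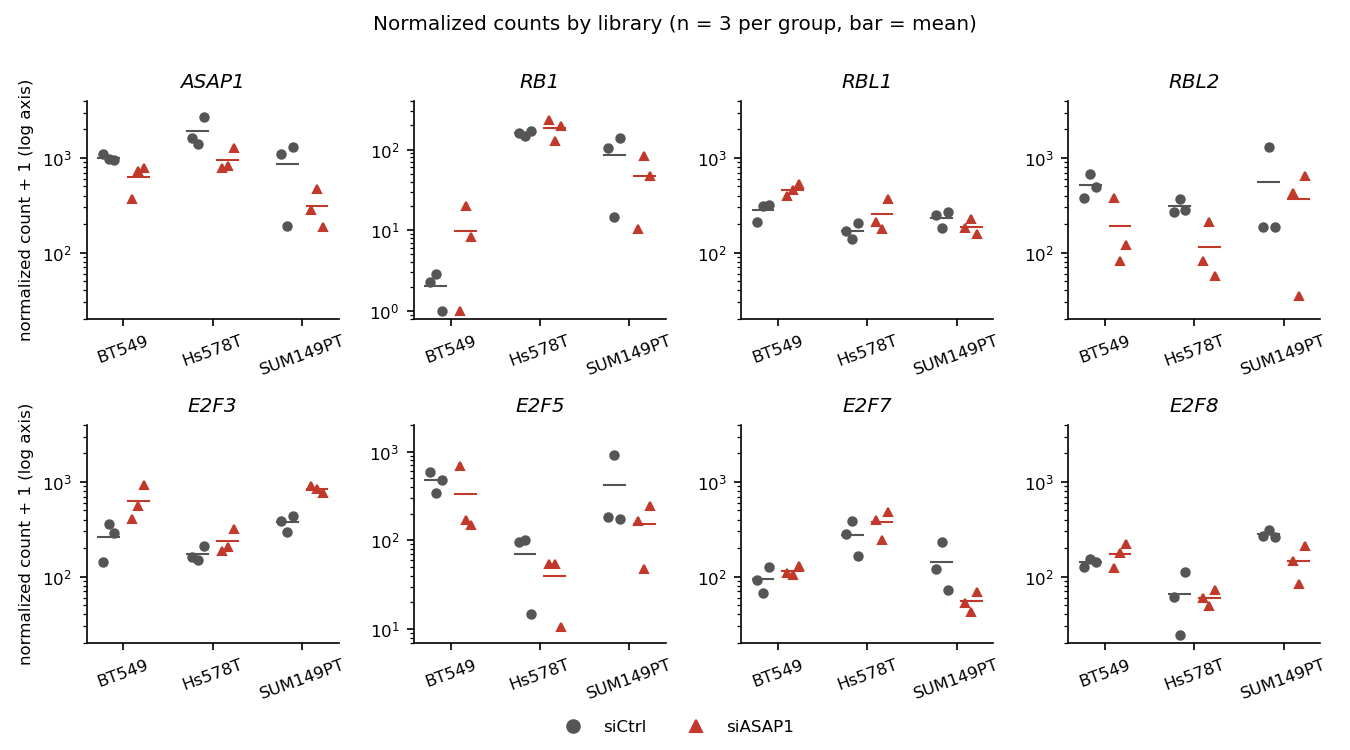
Normalized count + 1 of ASAP1 and 7 member probes (RBL2 as RBL2_5761), on log axes that differ in range, by cell line and treatment. Points are the 3 libraries of a group in replicate order and bars are group means. E2F3 lay above every siCtrl library in all siASAP1 libraries of BT549 and SUM149PT, and RB1 was near 0 in BT549.

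E2F3 (6:20401906-20493715 in GRCh38, plus strand), an activator of the G1/S genes, was the activating factor with a readable probe in all 3 cell lines. In BT549 its normalized count was 141, 355 and 288 after siCtrl and 409, 562 and 933 after siASAP1. In Hs578T it was 159, 147 and 209.8 after siCtrl and 186, 205 and 321 after siASAP1. In SUM149PT it was 382, 294 and 439.6 after siCtrl and 898, 836 and 770.1 after siASAP1. The groups did not overlap in BT549 and SUM149PT, and in Hs578T 1 of 3 siASAP1 libraries was above all siCtrl libraries. Each of the 9 siASAP1 libraries was above the siCtrl mean of its cell line.

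The Log2 FC of E2F3 was 1.29 (SE 0.48) in BT549, 0.44 (SE 0.34) in Hs578T and 1.18 (SE 0.37) in SUM149PT, with unadjusted limma p of 0.021, 0.23 and 0.013 and adjusted p of 0.60, 0.92 and 0.38. In 1 fit of all 18 libraries that allowed for cell line, the Log2 FC was 0.97 (SE 0.23, adjusted p = 0.035). The adjusted p ran from 0.024 to 0.090 over 27 alternatives and was under 0.05 in 11 of them, and it was 0.071 with the replicate block. The call was lost without any single SUM149PT library, without BT549 siCtrl 1 or 3 or siASAP1 2 or 3, and without Hs578T siCtrl 1 or 2 or siASAP1 3. In SUM149PT alone, without both libraries numbered 2, the Log2 FC was 1.02 (adjusted p = 0.011). The effect did not differ between cell lines in the interaction test (unadjusted p = 0.26, adjusted p = 0.97).

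The other activators were barely read. E2F1 had at most 87 reads in a library and 0 reads in 11 of 18 libraries, including all 6 of Hs578T. Its normalized counts in BT549 were 0, 16.3 and 17.5 after siCtrl and 13.3, 0 and 79.4 after siASAP1, and the Log2 FC there was 0.61 (SE 1.74). In SUM149PT its counts were 0, 9.11 and 0 after siCtrl and 11.9, 38.5 and 0 after siASAP1. E2F2 had 0 reads in 16 libraries, 3 reads in BT549 siASAP1 1 and 4 in SUM149PT siASAP1 2. Over the 49.6 M reads of Hs578T, 0 reads allows up to 3 reads, or 0.0605 per M reads, counting error only. Whether E2F1 and E2F2 changed was not detectable at this depth.

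RBL2 (16:53433977-53491649 in GRCh38, plus strand), the pocket protein of the DREAM complex, had the lowest Log2 FC of the members tested in BT549 and Hs578T. Its probe RBL2_5761 had normalized counts of 378, 676 and 490.3 after siCtrl and 376, 81.2 and 119 after siASAP1 in BT549. In Hs578T the counts were 268, 369 and 284 after siCtrl and 80.5, 208 and 55.4 after siASAP1. In SUM149PT they were 184, 1299 and 187 after siCtrl and 426, 33.3 and 645 after siASAP1. The groups did not overlap in BT549, by a margin of about 2 counts, nor in Hs578T. In SUM149PT they overlapped, and the highest and the lowest library were both numbered 2.

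The Log2 FC of RBL2 was -1.70 (SE 0.56, unadjusted p = 0.013, adjusted p = 0.55 in limma) in BT549 and -1.63 (SE 0.47, unadjusted p = 0.0066, adjusted p = 0.91) in Hs578T. With the replicate block the adjusted p in Hs578T was 0.046. In SUM149PT the Log2 FC was -0.75 (SE 1.20), and it was 0.18 without siCtrl 2, 0.56 without siASAP1 2 and 1.49 (adjusted p = 0.0062) without both, so that its direction in SUM149PT rested on these libraries. In BT549 it was -2.34 (adjusted p = 0.025) without siASAP1 1. Over the 18 libraries it was -1.36 (SE 0.52, adjusted p = 0.19), with 8 of 9 siASAP1 libraries below the siCtrl mean of their cell line. The other probe, RBL2_26131, had at most 21 reads and 0 reads in 8 libraries, and did not pass the filter in any cell line.

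RBL2 also varied with the largest component of variation among replicates, found by a singular value decomposition after each group's mean was subtracted. That component held 42.5% of the variance among replicates, and RBL2 correlated with it at r = 0.90, E2F5 at 0.84, RB1 at -0.80, RBL1 at -0.60 and E2F3 at -0.36 over the 18 libraries. Over all probes tested the median absolute r was 0.57. The correlation of RBL2 with log2 read depth within groups was 0.52. These are descriptions over libraries that share groups, and the part of this component in the RBL2 difference was not tested.

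**Figure D2:**
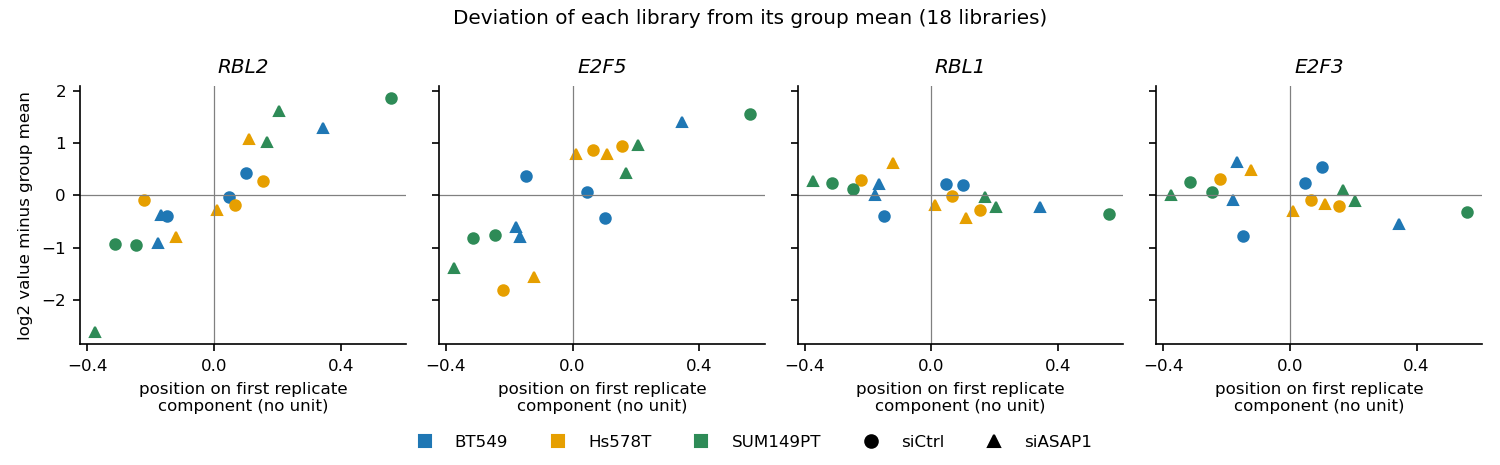
Deviation of each library's log2 value from its group mean for RBL2, E2F5, RBL1 and E2F3 against the library's position on the first component of variation among replicates (no unit), with cell lines by color and treatments by shape. RBL2 and E2F5 rise along the component (r = 0.90 and 0.84), RBL1 falls (r = -0.60), and E2F3 is spread (r = -0.36).

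RBL1 (20:36996349-37095995 in GRCh38, minus strand), the pocket protein of cycling cells and an E2F target, had the opposite sign to RBL2 in BT549 and Hs578T. Its normalized counts in BT549 were 208, 313 and 317 after siCtrl and 393, 462 and 534 after siASAP1, and the groups did not overlap. In Hs578T they were 166, 137 and 205 after siCtrl and 212, 177 and 369 after siASAP1, and in SUM149PT 249, 179 and 267 after siCtrl and 179.9, 224 and 158 after siASAP1, with overlap in both. The Log2 FC was 0.74 (SE 0.38), 0.52 (SE 0.37) and -0.30 (SE 0.42), and no cell line met the DEG limits (unadjusted p = 0.079, 0.19 and 0.50). RB1 itself had a Log2 FC of 0.18 (SE 0.34) in Hs578T and -0.80 (SE 1.10) in SUM149PT, and too few reads in BT549 to be tested. In SUM149PT it was -1.81 without siCtrl 2, -1.45 without siASAP1 2, 0.074 without siASAP1 1 and -2.46 (adjusted p = 0.042) without both libraries numbered 2.

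Of the repressors, E2F5 had a lower mean after siASAP1 in each cell line, which did not exceed its spread. Its normalized counts were 594, 341 and 482 after siCtrl and 688, 169 and 149 after siASAP1 in BT549. They were 93.7, 99.5 and 13.8 after siCtrl and 53.3, 53.2 and 9.60 after siASAP1 in Hs578T, and 182, 907 and 174 after siCtrl and 165, 46.2 and 240.5 after siASAP1 in SUM149PT. The groups overlapped in each cell line. The Log2 FC was -0.83 (SE 0.58), -0.73 (SE 0.88) and -1.31 (SE 0.84) in BT549, Hs578T and SUM149PT. Over the 18 libraries it was -0.96 (SE 0.50, adjusted p = 0.36). In BT549 it was -1.53 (adjusted p = 0.047) without siASAP1 1, and in SUM149PT it was 0.16 without both libraries numbered 2. E2F4 had at most 46 reads and 0 reads in 7 libraries, with a Log2 FC of 2.32 (SE 1.33) in BT549 and -2.02 (SE 1.33) in SUM149PT, where it passed the filter through its higher group (means of 3.18 after siCtrl and 19.5 after siASAP1, and of 26.7 and 9.10). Without 1 library, the Log2 FC of E2F4 ran from 1.52 to 3.02 in BT549 and from -2.75 to -0.73 in SUM149PT.

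The atypical factors had a negative Log2 FC in SUM149PT. E2F7 had 119, 230.5 and 70.3 after siCtrl and 51.6, 41.0 and 68.3 after siASAP1 there. E2F8 had 269, 312 and 261 after siCtrl and 146, 82.0 and 209 after siASAP1. Neither pair of groups overlapped, with a margin of about 2 counts for E2F7. The Log2 FC was -1.23 (SE 0.60, unadjusted p = 0.073) for E2F7 and -1.04 (SE 0.48, unadjusted p = 0.064) for E2F8, so that neither met the DEG limits. Without siCtrl 2 and siASAP1 2 both had a negative Log2 FC (-0.61 and -0.60).

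In BT549 E2F7 had 89.8, 65.4 and 125 after siCtrl and 108, 103 and 129.6 after siASAP1, and in Hs578T 279, 388 and 164 after siCtrl and 395, 244 and 477 after siASAP1. E2F8 had 126, 151 and 142 after siCtrl and 122, 178 and 219 after siASAP1 in BT549, and 59.9, 22.8 and 110.3 after siCtrl and 57.8, 48.0 and 70.4 after siASAP1 in Hs578T. Their groups overlapped, with Log2 FCs of 0.32 (SE 0.45) and 0.46 (SE 0.40) for E2F7 and 0.27 (SE 0.42) and 0.12 (SE 0.57) for E2F8. In Hs578T the mean count of E2F8 was lower after siASAP1 (58.7 against 64.4), and its Log2 FC ran from -0.48 to 0.63 when 1 library was left out. In the interaction test E2F7 had an unadjusted p of 0.038 (adjusted p = 0.77) and E2F8 of 0.16 (adjusted p = 0.95).

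Counted over members, the DEG limits of the study (unadjusted p under 0.05 and absolute Log2 FC over 1) were met in BT549 by RBL2 among lower probes, where 3.69% of all probes tested were called lower, and by E2F3 among higher probes, where 3.28% were. In Hs578T RBL2 was called lower, against 1.44% of all probes, and 0 of 7 members higher, against 1.34%. In SUM149PT 0 of 8 members were called lower, against 4.29%, and E2F3 was called higher, against 5.27%. The groups did not overlap for 3 of 8 members in BT549 (13.9% of all probes), 1 of 7 in Hs578T (12.1%) and 3 of 8 in SUM149PT (17.3%). In the limma fit over 18 libraries, 0 of 9 members had an adjusted p under 0.05 and a lower level, against 1.06% of probes, and E2F3 a higher level, against 0.678%. At an unadjusted p under 0.05 there were 2 of 9, RBL2 and E2F3, against 15.8% of all probes, and with voom weights 3, of which 1 was called after adjustment. In the interaction test 0 of 9 members had an adjusted p under 0.05, against 0.00955% of probes, with 1 at an unadjusted p under 0.05 in limma, against 6.22%, and 0 with voom weights.

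The share of DEGs that were higher depended on scaling. It was 48.1% in Hs578T, 55.1% in SUM149PT and 55.5% over 18 libraries, and became 70.3%, 74.0% and 73.2% when libraries were scaled by their totals alone, which moved the median Log2 FC of all probes to 0.12, 0.30 and 0.15. In BT549 the share moved less, from 47.0% to 53.7%. For Hs578T against BT549 after siCtrl it moved from 52.3% to 42.1%. After siASAP1, the Log2 FC of E2F3 was positive and that of RBL2 negative under each of the 3 scalings in each cell line. In SUM149PT the direction of RBL2 still rested on the libraries numbered 2.

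**Figure D3:**
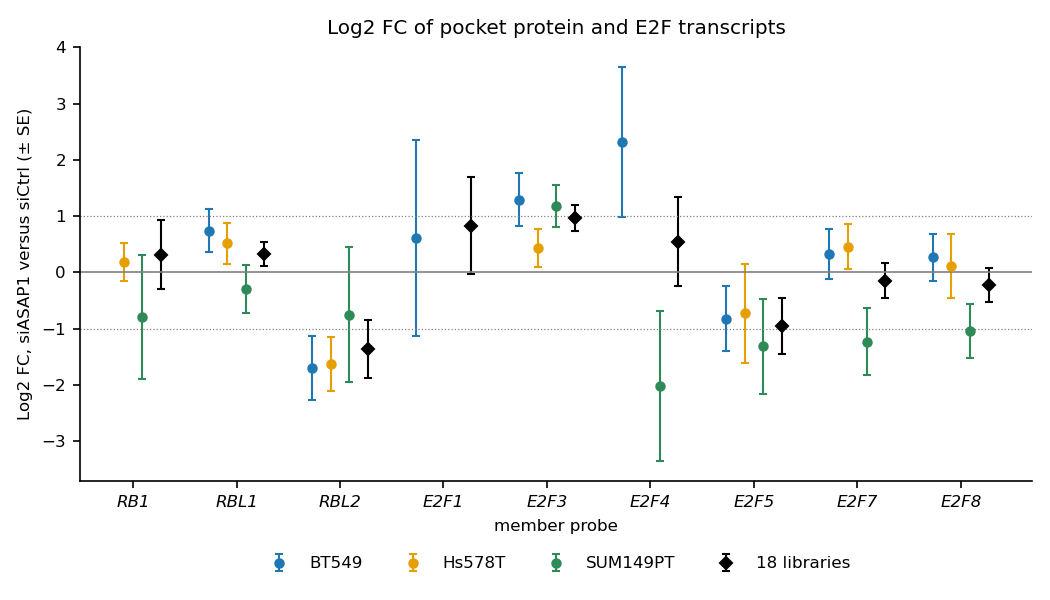
Log2 FC of siASAP1 versus siCtrl with its SE from limma for each member probe that passed the filter, by cell line (circles) and over the 18 libraries (diamonds); dotted lines mark an absolute Log2 FC of 1. E2F3 is above 0 and RBL2 below 0 in each cell line, but RBL2 in SUM149PT is within its SE of 0. E2F7 and E2F8 are below 0 in SUM149PT and above 0 in BT549 and Hs578T. The Log2 FC of E2F8 in BT549 and Hs578T, and of E2F7 in BT549, is within its SE of 0.

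Several members covaried from library to library. After each cell line's mean was subtracted, the highest Pearson r among the pairs of member probes was 0.86 for RBL1 with E2F4, a probe of few reads, and the lowest was -0.69 for E2F3 with E2F5. RBL2 correlated with E2F5 at Pearson r = 0.76, with RB1 at -0.67 and with RBL1 at -0.67 over 18 libraries, and RBL1 with E2F3 at 0.61 and with E2F5 at -0.66. The probes of other genes most like RBL2 were SENP2 (r = 0.96), KLHL5 (0.95) and MFF (0.95), and those most like E2F3 were RNF19B (0.95), GBP5 (0.95) and ZNF335 (0.94). For E2F5 they were TXNDC16 (0.93), CDKN3 (0.93) and CCNB1 (0.92), and for E2F8 DTL (0.84), WHSC1 (0.82) and SMC4 (0.81). All points share their libraries and their scaling, and the values describe likeness only.

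Downstream genes were read from lists written from known function. Of the list of 50 E2F targets of G1/S, which act in DNA replication, 47 probes were tested over the 18 libraries and 39 had a negative Log2 FC, with a median of -0.39, against 48.3% of all probes and a median of 0.02. Of the 35 MuvB targets of G2/M, which act in mitosis, 30 were tested and 27 were negative, with a median of -0.44. After adjustment 1 of these probes passed, as lower, which was near the 1.06% of all probes, and at an unadjusted limma p under 0.05 it was 6 lower and 1 higher of the G1/S probes and 8 lower and 0 higher of the G2/M probes, where 8.17% of all probes were lower and 7.68% higher at that limit. In both directions together, the G1/S probes were near the 15.8% of all probes.

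MCM6, a subunit of the replicative helicase, was the probe that passed. In BT549 it had 1303, 941 and 1063 after siCtrl and 625, 453 and 389.6 after siASAP1. In Hs578T it had 666, 478 and 599 after siCtrl and 257, 417 and 219 after siASAP1, and in SUM149PT 1067, 2004 and 724 after siCtrl and 339, 229 and 342 after siASAP1. The groups did not overlap in any cell line. It fell by 1.38 on the log2 scale over 18 libraries (SE 0.22, adjusted p = 0.0035), and met the DEG limits in all 3 cell lines. The Log2 FC was -1.19 in BT549, -1.005 in Hs578T, just past the limit, and -1.95 in SUM149PT. The adjusted limma p within these cell lines were 0.53, 0.91 and 0.33.

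Both lists had their lowest medians in SUM149PT. The summed normalized count of the G2/M list there was 43046, 43876 and 40765 after siCtrl and 17523, 17378.5 and 18988 after siASAP1. That of the G1/S list was 45876, 38769.9 and 49275.5 after siCtrl and 15332, 21923 and 19100.7 after siASAP1. The groups of these sums did not overlap. In that cell line 29 of 30 G2/M probes had a negative Log2 FC (median -1.06) and 42 of 46 G1/S probes did (median -0.93), against 46.5% of all probes (median 0.09). The DEG limits were met by 8 G2/M and 8 G1/S probes as lower and 0 as higher, against 4.29% and 5.27% of all probes. Every siASAP1 library was below every siCtrl library for 12 and 13 of them, or 40% and 28.3%, against 8.41% of all probes. After adjustment 0 list probes passed in limma with all 6 libraries of SUM149PT.

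Without SUM149PT siCtrl 2 and siASAP1 2, the medians were -0.98 for G2/M, with 22 of 30 negative, and -0.89 for G1/S, with 30 of 43 negative. In that fit of 2 libraries against 2, the DEG limits were met by 12 G2/M probes as lower and 1 as higher and by 17 G1/S probes as lower and 3 as higher, where 16.9% of all probes were called lower. After adjustment 14 G2/M probes were lower and 1 higher and 17 G1/S probes were lower and 3 higher, against the 16.1% and 21.7% of all probes given above. With the replicate block in SUM149PT, 3 G2/M and 1 G1/S probes met the DEG limits as lower, against 1.55% of all probes, so that the G1/S count was near that share. Scaled by library totals, the medians were -0.84 and -0.73, against 0.30 for all probes. Over the 18 libraries, the medians without these 2 libraries were -0.33 for G2/M and -0.15 for G1/S.

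In Hs578T the G2/M sum was 47688, 39508 and 46257 after siCtrl and 34182.5, 34546 and 33915.5 after siASAP1, without overlap. There 24 of 30 probes were negative (median -0.38), against 49.2% of all probes (median 0.01). Scaled by library totals, 21 of 30 were negative. In BT549 the G2/M sum was 40133, 30908 and 36156 after siCtrl and 37012, 30389 and 30110.3 after siASAP1. There 14 of 30 were negative (median 0.03), against 50.1% of all probes. The G1/S sum was 27478, 19921 and 32239.8 after siCtrl and 19716, 21067 and 23198 after siASAP1 in Hs578T, and 27766, 24042 and 25979 after siCtrl and 25472, 31353 and 33250.3 after siASAP1 in BT549, with overlap in both and the higher mean after siASAP1 in BT549. In those cell lines 25 of 45 G1/S probes (median -0.11) and 24 of 46 (median -0.02) were negative, against 49.2% and 50.1% of all probes. The DEG limits were met by 0 G2/M probes in either cell line. Of the G1/S probes, 2 in Hs578T and 1 in BT549 met them as lower, against 1.44% and 3.69% of all probes. Whether the lists differed between cell lines was not tested. The most abundant genes were TYMS, the thymidylate synthase, of the G1/S list, and ANLN, which acts in cytokinesis, of the G2/M list, over the 18 libraries. In SUM149PT the most abundant G2/M gene was NUSAP1, a spindle protein, at a mean of 11448 after siCtrl and 4103 after siASAP1. TYMS had 18949, 4157 and 20373 after siCtrl and 2679, 7182 and 3999 after siASAP1 in SUM149PT, and its groups overlapped through siCtrl 2. ANLN had 3671, 3652 and 2739.8 after siCtrl and 3169, 2082 and 2428.5 after siASAP1 there, again with overlap.

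Markers of mesenchymal and epithelial cells were read beside these lists. The summed normalized count of the mesenchymal markers in SUM149PT was 6519, 5712 and 7078 after siCtrl and 9893, 11846.7 and 9895 after siASAP1, without overlap. That sum went with FN1, a matrix protein whose probe FN1_27231 had a Log2 FC of 2.35 (SE 0.35, adjusted p = 0.17), whereas VIM_18185 had one of -1.48 (SE 0.36, adjusted p = 0.33). Of the 5 mesenchymal probes tested there, 3 met the DEG limits as higher and 1 as lower, against 5.27% and 4.29% of all probes. These probes read 3 genes, with FN1 read by several, so they do not count as separate markers. In BT549 that sum was 58679, 58759 and 57093 after siCtrl and 60528, 93609 and 110093 after siASAP1, again without overlap. There 4 of 8 probes, which read 4 genes, lay above and 2 below every siCtrl library, where 13.9% of all probes did either. For SPARC, 1 probe met the DEG limits as lower. In Hs578T the sum was 155626, 182793 and 265204 after siCtrl and 151614, 200357 and 174575 after siASAP1, with overlap. The summed epithelial markers in SUM149PT were 44027, 31019.6 and 55457 after siCtrl and 27706, 30052 and 33733.5 after siASAP1, with overlap. Over 18 libraries 1 of 8 mesenchymal probes (4 genes), FN1_27231, rose at an adjusted p under 0.05 in limma (Log2 FC 1.04, adjusted p = 0.048). Of the 8, 3 had a negative Log2 FC. Of the 7 epithelial probes tested (6 genes), 3 had a negative Log2 FC and 0 had an adjusted p under 0.05, nor an unadjusted p under 0.05. Their part in the results on E2F targets was not tested.

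**Figure D4:**
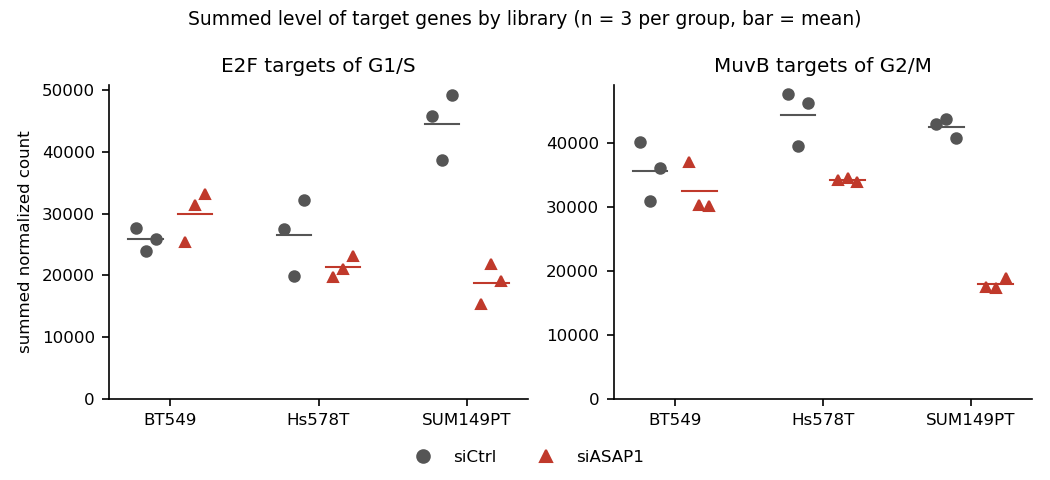
Summed normalized count (linear axis from 0) of the E2F targets of G1/S and the MuvB targets of G2/M in each library, by cell line and treatment, with bars at group means. In SUM149PT the siASAP1 libraries lie at 15332 to 21923 for G1/S and 17378.5 to 18988 for G2/M, below every siCtrl library.

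The remaining lists of the pathway had 0 probes at an adjusted p under 0.05 over 18 libraries in limma. Their counts at an unadjusted p under 0.05 stand against 15.8% of all probes. With a minimum mean of 50, 1 probe of these lists, CDK4, was called lower after adjustment. Of the DP partners and E2F6, 3 probes were tested and 1 was negative (median 0.44), with 1 at an unadjusted p under 0.05. Of the MuvB core and its activators, 6 were tested and 3 were negative (median -0.16), with 0 at an unadjusted p under 0.05. Of the cyclins and kinases that phosphorylate pocket proteins, 7 were tested and 5 were negative (median -0.21), with 3 at an unadjusted p under 0.05. Of the CDK inhibitors, 4 were tested and 2 were negative (median -0.01), with 1 at an unadjusted p under 0.05. Of the corepressors, 15 were tested and 6 were negative (median 0.04), with 2 at an unadjusted p under 0.05. Of the E2F targets of apoptosis, 8 probes of 6 genes were tested and 2 were negative (median 0.33), with 0 at an unadjusted p under 0.05. In SUM149PT 2 of 9 were negative (median 1.05), against 46.5% of all probes. Those 9 probes read 6 genes, so some genes count more than once in the median. Their sums there overlapped, at 1354, 1399 and 1338 after siCtrl and 1917, 1249 and 1347 after siASAP1. APAF1 was the most read probe in these sums, at a mean of 919 after siCtrl and 749 after siASAP1. In Hs578T and in SUM149PT 1 probe, for BMF, met the DEG limits as higher, against 1.34% and 5.27% of all probes. CCNE1, CCNE2 and CCNA2 stand in the cyclin list and in a target list, and CDKN2A in the lists of CDK inhibitors and of apoptosis.

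CDKN2D, a CDK4 and CDK6 inhibitor, met the DEG limits in opposite directions, with few reads. Its probe passed the filter through the group where it was high, at means of 7.66 after siCtrl and 57 after siASAP1 in BT549 and 27.8 and 2.20 in SUM149PT. It had 3.74, 15.7 and 3.51 after siCtrl and 21.3, 31.2 and 119 after siASAP1 in BT549 (Log2 FC 2.64, SE 0.92). In SUM149PT it had 52.9, 12.8 and 17.6 after siCtrl and 6.61, 0 and 0 after siASAP1 (Log2 FC -3.61, SE 1.43), and in Hs578T 23.6, 8.16 and 51.2 after siCtrl and 14.7, 17.9 and 18.1 after siASAP1 (Log2 FC -0.35, SE 0.75). The groups did not overlap in BT549 and SUM149PT, and the adjusted p were 0.58 and 0.46 in limma. With the replicate block in SUM149PT, 0 probes of the CDK inhibitors met the DEG limits, so the call of CDKN2D there was lost.

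The genes in this paragraph were chosen after their values were seen. BMF, a pro-apoptotic BH3-only protein of the apoptosis list, met the DEG limits as higher in Hs578T and SUM149PT. Its normalized count was 12.7, 35.1 and 23.6 after siCtrl and 174.5, 68.2 and 91.7 after siASAP1 in Hs578T (Log2 FC 2.18, SE 0.54, adjusted p = 0.77), and 14.3, 13.7 and 19.2 after siCtrl and 60.9, 33.3 and 73.6 after siASAP1 in SUM149PT (Log2 FC 1.71, SE 0.67, adjusted p = 0.46). Neither pair of groups overlapped for BMF, and in BT549 the probe was below the filter. With the replicate block in SUM149PT, 0 probes of the apoptosis list met the DEG limits, so the call of BMF there was lost. CDK4, the kinase most read of its list, had a Log2 FC of -0.74 (SE 0.36), -0.39 (SE 0.20) and -0.87 (SE 0.38) in BT549, Hs578T and SUM149PT, and -0.67 (SE 0.19, unadjusted p = 0.0020, adjusted p = 0.072) over 18 libraries. CDK6 in SUM149PT had 711, 565 and 667 after siCtrl and 2897, 1693 and 1993.5 after siASAP1 (Log2 FC 1.73, SE 0.37, adjusted p = 0.33), without overlap, while its Log2 FC was -0.23 (SE 0.52) in BT549 and 0.11 (SE 0.29) in Hs578T. CCNE1, a cyclin of G1/S, had 25.7, 31.0 and 19.2 after siCtrl and 6.61, 3.85 and 0 after siASAP1 in SUM149PT (Log2 FC -2.96, SE 1.20, adjusted p = 0.47), while its Log2 FC was 1.72 (SE 0.85) in Hs578T and 0.61 (SE 0.58) in BT549. The CCNE1 probe, too, passed the filter in SUM149PT and Hs578T through the group where it was high. TFDP1, the main DP partner of E2F factors, had 3966, 2639 and 4305 after siCtrl and 1234, 2088 and 1368 after siASAP1 there (Log2 FC -1.22, SE 0.39, adjusted p = 0.38), again without overlap, while its Log2 FC was 0.32 (SE 0.33) in BT549 and -0.09 (SE 0.31) in Hs578T. Which kinases the siCtrl pool targets was not analysed here, and its part in the levels of CDK4 and CDK6 was not tested.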

How the data were processed

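The authors assigned TempO-Seq reads to 21111 probes, divided them by DESeq2 size factors and deposited log2 values of the normalized count plus 1. The labels name bcl2fastq, Bowtie and DESeq2, and the genome build is not given in the sources used here. Groups came from the labels. With the log2 undone and each library's size factor, found from its smallest value and refined over larger ones, multiplied back, 100% of deposited values were whole reads (within 0.01). Tests used limma 3.58.1 in R 4.3.3 (lmFit, eBayes with trend) on the log2 values, since these are not raw counts, for probes whose mean normalized count reached 10 in the fitted samples, with Benjamini-Hochberg adjustment. For 3 libraries against 3 the smallest exact permutation p is 0.1. Named genes were ASAP1, all members, and list probes with an adjusted p under 0.05 over 18 libraries or, in the lists of partners, MuvB core, cyclins and kinases, and CDK inhibitors, within the DEG limits in 2 cell lines. Members and lists were chosen with earlier results of these data known. Replicates of a group differed by more than counting noise (chi-square per degree of freedom 10.1 to 247). Alternatives were other scalings, filters, pseudocount, voom weights, summed probes, the replicate block, a single fit and left-out libraries. Tests were checked on simulated data. Figures used matplotlib 3.10.9, and promoter words came from the RefSeq table. Intervals of zero counts cover counting error only.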

Additional observations from a re-analysis of the deposited data

How the results depend on the processing

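Of 960 alternatives for the Log2 FC of single members, 911 kept their direction and side of the threshold, 20 lost and 14 gained a call, and 15 changed sign. A result uncalled in the main fit kept its side by staying uncalled. Of 183 for counts of calls, 134 stayed within 1.5 times the count reported and 49 did not. ASAP1 was uncalled in each cell line in the main fit, and of its 46 alternatives 44 stayed uncalled and 2 gained a call. The causes were not tested. Members within the DEG limits went from 2 in BT549 and 1 in Hs578T to 1 and 0 in a single fit of 18 libraries, and from 1 to 2 in SUM149PT. With an adjusted p in limma they were 0, 0 and 0 (2, 1 and 1 at an unadjusted p, with voom weights too). With the replicate block, SUM149PT went from 1 to 0, the 18-library count from 1 (E2F3) to 0, the siCtrl comparison of SUM149PT with Hs578T from 1 to 2 (E2F5 added), and ASAP1 in Hs578T gained its call at -0.98, as RBL2 did there. Same-numbered samples correlated at -0.19, -0.39 and 0.14 in BT549, 0.0998, 0.42 and 0.41 in Hs578T and -0.33, -0.66 and -0.35 in SUM149PT, so numbers were not taken as pairs; in Hs578T every siASAP1 library correlated best with its own number, a hint from the data only.

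Without a filter, the 18-library count was 0 and the SUM149PT to Hs578T siCtrl count 2 (3 in the single fit). A minimum mean of 50 raised the probes called in the pathway lists from 1 to 4 (MCM6, CDK4, DLGAP5 and NUSAP1). Without SUM149PT siCtrl 2 and siASAP1 2, chosen after seeing the data, the SUM149PT count was 3, the 18-library count 0, ASAP1 -2.39, RBL2 1.49 and E2F5 0.16 in SUM149PT, and E2F7 over 18 libraries 0.14. Voom weights gave E2F1 in BT549 -0.0025.

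Leaving out 1 library gave 1 to 3 members in BT549, 1 to 2 in Hs578T, 1 to 2 in SUM149PT, 0 to 1 over 18 libraries and 0 to 0 in the interaction, and 1 to 4 list probes. The siCtrl comparisons gave 1 to 3 (Hs578T, BT549), 1 to 2 (SUM149PT, BT549) and 1 to 3 (SUM149PT, Hs578T). ASAP1 ran from -0.95 to -0.41 in BT549, -1.20 to -0.71 in Hs578T and -2.04 to -0.64 in SUM149PT. Log2 FCs that changed sign ran from -0.77 to 2.31 (E2F1, BT549), -0.0024 to 0.42 (RB1, Hs578T), -1.63 to 0.060 (E2F5, Hs578T), -0.48 to 0.63 (E2F8, Hs578T), -1.81 to 0.074 (RB1, SUM149PT), -1.56 to 0.56 (RBL2, SUM149PT), -0.043 to 0.64 (RB1, 18 libraries), -0.29 to 0.053 (E2F7, 18 libraries) and -0.71 to 0.70 (RBL2, siCtrl, SUM149PT to Hs578T). The few reads of E2F1, E2F2, E2F4 and, in BT549, RB1 limit the precision of their values.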
